A study of Bos taurus
Mus musculus with 10 samples.

Results

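The EPHB receptors and their ephrin-B ligands were followed in co-cultures of bovine embryonic stem cells and mouse feeder fibroblasts, 1 day after the Wnt pathway inhibitor IWR-1 had been taken out of the medium. Members were taken by gene symbol in the bovine table, which gave 8 genes, the receptors EPHB1, EPHB2, EPHB3, EPHB4 and EPHB6 and the ligands EFNB1, EFNB2 and EFNB3. In the mouse table they were taken by NCBI gene ID, which gave 6 genes, Ephb1 (270190), Ephb2 (13844), Ephb3 (13845), Ephb4 (13846), Efnb1 (13641) and Efnb2 (13642). These 14 genes are among 58939 listed in both tables. Mouse counterparts of EPHB6 and EFNB3 were not used here.

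Eph receptors are receptor tyrosine kinases whose ligands, the ephrins, are themselves held in the membrane, so that a signal passes only between touching cells. B-type ephrins span the membrane and carry a cytoplasmic tail, and signals run both forward into the receptor-bearing cell and in reverse into the ligand-bearing cell. The usual outcomes are repulsion, the sorting of mixed cells and the upkeep of tissue boundaries. In the intestinal crypt of the mouse, EphB2 and EphB3 are targets of Wnt/beta-catenin signalling, whereas ephrin-B ligands mark the differentiated cells above. IWR-1 inhibits tankyrases, which stabilises AXIN and dampens that pathway.

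The medium without IWR-1 (IWRR) was compared with the complete medium holding 2.5 µM IWR-1 (IWR). Wild-type bovine lines 1, 2, 4, 8 and 11, derived from blastocysts of day 7.5, each gave 1 well per medium, and hence 5 libraries per group. All wells also held fibroblasts from CD-1 mouse fetuses of stage E13.5, which mitomycin C had stopped from dividing. The whole well was collected, so both cell types were read from the same RNA.

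Each library held 48064953 to 64345738 reads on bovine genes and 17101894 to 35223039 on mouse genes. The mouse share of reads averaged 26.8% ± 8.45 without IWR-1 and 30.4% ± 7.57 with it (SD, n = 5 each), and each of the 5 lines had the lower share without IWR-1 (exact sign-flip test, p = 0.0625, the smallest that 5 pairs allow). In the bovine table all 9 matched pluripotency markers reached a normalised read count of 10 in every library. So did 10 of 12 fibroblast and mesenchyme markers and 5 of 5 neural markers, so this count does not tell cell types apart. Line 4 stood apart in both media. Its summed counts over 12 bovine fibroblast and mesenchyme markers were 140641 without IWR-1 and 127626 with it. No other line exceeded 40455 without IWR-1 or 28774 with it. Its mouse share was 41.4% without IWR-1 and 42.3% with it, and no other line exceeded 26.6% or 33.3% in the same media. Its 5 neural markers summed to 50408 without IWR-1 and 49344 with it, where the next highest lines had 33189.7 and 31622. Its summed pluripotency markers were the lowest of the 5 lines. The mouse table could not be checked against markers, because its IDs are not paired with names. The sources used here do not say how reads alike in both species were assigned. For EPHB1 a direct reading exists: line 11 with IWR-1 had 823 bovine reads and 0 mouse reads.

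Among the bovine members EPHB1 was called on removal of IWR-1, at 0.66-fold. The 95% intervals of EPHB3, EPHB6 and EFNB3 also excluded 0, without a call. Of the 8 members tested, 1 was called and 7 were not, at a Benjamini-Hochberg adjusted p under 0.05 in limma with the line as a block. Over all 18506 bovine genes tested, 0.951% were called in either direction, 0.886% higher and 0.0648% lower without IWR-1. The median log2 fold change of the 8 members was -0.04, against -0.0046 for all tested genes. In whole wells, fewer cells that express a gene and less RNA per cell cannot be told apart. Values below are normalised read counts, which are not divided by gene length, so levels are compared between samples and not between genes.

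EPHB1 encodes a receptor known in the mouse for guiding retinal axons at the optic chiasm. Without IWR-1 it stood at 56.2, 318, 369, 454 and 391 normalised reads in lines 1, 2, 4, 8 and 11, against 71.9, 429.7, 616, 607 and 799 in the same lines with IWR-1. It was lower without IWR-1 in every line, although the groups overlapped, with line 1 the lowest in both media. The means were 318 ± 154 without IWR-1 and 505 ± 275 with it (SD, n = 5 each), and the log2 fold change was -0.59 ± 0.12 (SE; 95% interval -0.85 to -0.33; limma adjusted p = 0.0471). Line 11 showed the deepest difference, at 0.49 of its level with IWR-1 (95% exact binomial interval 0.43 to 0.55, for counting error only), and line 4 came next at 0.60. In line 1, with 57 reads against 71, the interval of the ratio ran from 0.54 to 1.12 and so did not separate the wells. The call was lost in each of the 5 fits that left out a line (limma adjusted p of 0.0535 to 0.251), with log2 fold changes of -0.65 to -0.48. These fits hold fewer wells. The fall was larger than in the full fit without line 1, 2 or 8, and smaller without line 4 or 11. The call was also lost without the filter on low values (limma adjusted p = 0.115) and without the line block (limma adjusted p = 1.00). After adjustment for each well's mouse share of reads the log2 fold change was -0.39, without a call (limma adjusted p = 1.00). Without the block or with this adjustment 0 of all 18506 tested bovine genes were called, so these losses are not particular to EPHB1. Without the block and without the filter the log2 fold change itself stayed at -0.59, and on the recovered reads EPHB1 was called by edgeR (adjusted p = 0.0334) and DESeq2 (adjusted p = 0.000357).

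EPHB3, one of the crypt receptors named above, had its lower value without IWR-1 in each of the 5 lines but was not called. Its values without IWR-1 were 5923, 8171, 1937, 4386 and 4751 normalised reads in lines 1, 2, 4, 8 and 11, and with IWR-1 they were 7468, 8269, 3057, 5430.2 and 6296. The difference was near nothing in line 2, at 0.99 of the level with IWR-1, and ran from 0.63 in line 4 to 0.81 in line 8. The log2 fold change was -0.34 ± 0.08 (SE; 95% interval -0.52 to -0.17; limma adjusted p = 0.0888). It was called when line 2 was left out (log2 fold change -0.43, adjusted p = 0.0182) and by DESeq2 on the recovered reads (adjusted p = 0.00734), but by none of the other alternatives tried.

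EPHB2, the other crypt receptor, moved in both directions. Without IWR-1 it stood at 3333, 6202, 2439, 3804 and 7134 normalised reads in lines 1, 2, 4, 8 and 11, against 3426, 4851, 3201, 4513 and 8206 with IWR-1. It was higher without IWR-1 in line 2 and lower in the other 4 lines, giving a log2 fold change of -0.11 ± 0.09 (SE; 95% interval -0.31 to 0.10; limma adjusted p = 0.829). EPHB4, a receptor of ephrin-B2 that marks veins in embryonic vessels, changed in the same direction as EPHB2 in each line, by different amounts. It stood at 8920.0, 15506, 7054, 8112 and 14347 normalised reads without IWR-1 and at 9951, 13469.9, 7284, 8927 and 15263 with it. Its log2 fold change was -0.05 ± 0.06 (SE; 95% interval -0.19 to 0.10; limma adjusted p = 0.913), and line 2 was again the only line with the higher value without IWR-1.

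EPHB6, a receptor that lacks kinase activity, was higher without IWR-1 in 5 of 5 lines and was not called. Without IWR-1 it stood at 128, 217, 229, 212 and 137 normalised reads in lines 1, 2, 4, 8 and 11, against 104, 127, 146, 197 and 111 with IWR-1. The counting intervals of the ratio separated the wells in line 2 (1.71-fold, 1.36 to 2.15) and line 4 (1.56-fold, 1.24 to 1.97), and included 1 in lines 1, 8 and 11. The log2 fold change was 0.42 ± 0.13 (SE; 95% interval 0.13 to 0.72; limma adjusted p = 0.252). EPHB6 thus differed from EPHB1 in the sign of its change in all 5 lines.

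**Figure D1:**
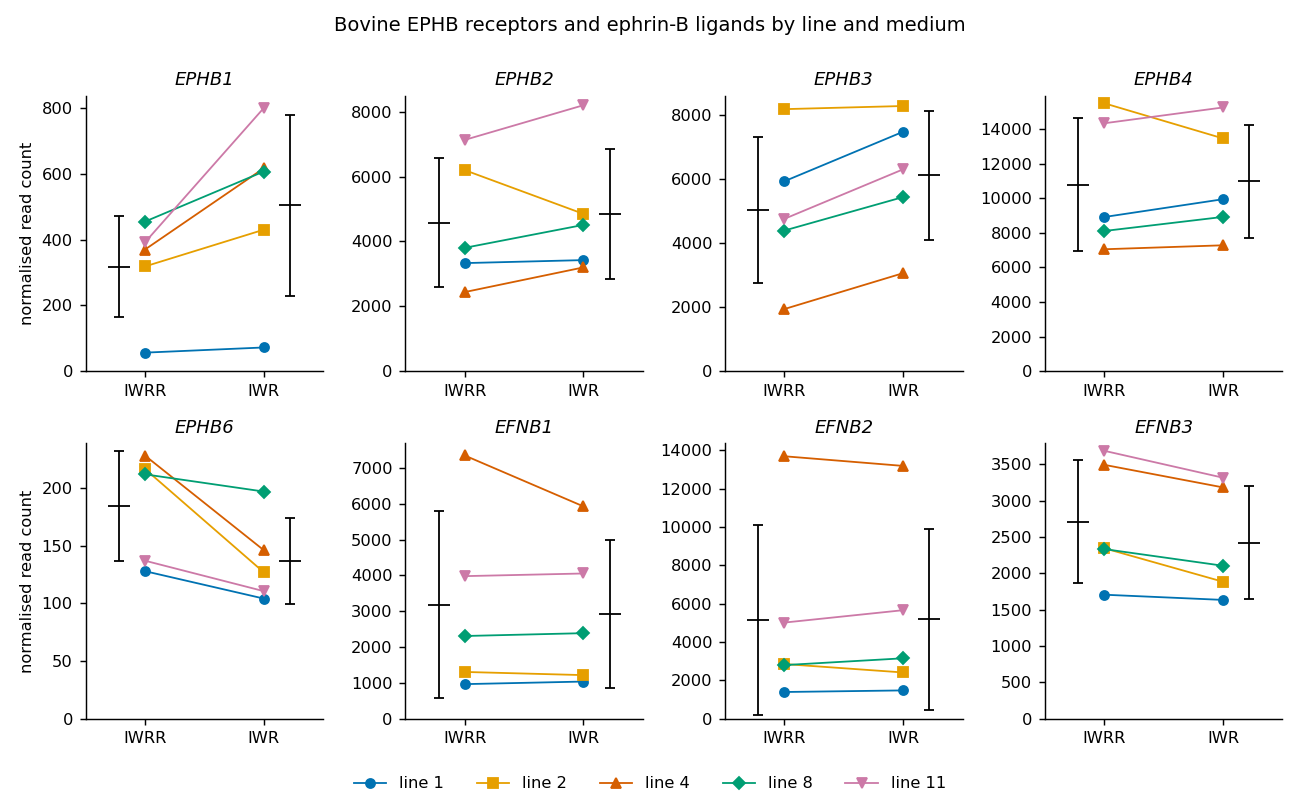
Normalised read counts (y axis, from 0) of the 8 bovine members in medium without IWR-1 (IWRR) and with it (IWR), with 1 coloured line per stem cell line and black bars for the mean and SD of 5 wells. EPHB1 and EPHB3 slope the same way in all 5 lines, EPHB6 and EFNB3 slope the opposite way, and the lines lie further apart than the media.

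Of the 3 ligands, 0 were called in limma, edgeR or DESeq2, and 1, EFNB3, had an unadjusted p under 0.05. EFNB1 encodes ephrin-B1, whose loss in humans causes craniofrontonasal syndrome. It stood at 964, 1304, 7354, 2309 and 3982 normalised reads without IWR-1 in lines 1, 2, 4, 8 and 11, against 1036, 1216, 5931, 2388 and 4056 with IWR-1. It was higher without IWR-1 in lines 2 and 4 and lower in the other 3 lines, and its log2 fold change of 0.05 ± 0.07 (SE; 95% interval -0.11 to 0.20; limma adjusted p = 0.921) became -0.02 without line 4.

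EFNB2 encodes ephrin-B2, the main partner of EPHB4 and a marker of arteries. Its values were 1389, 2848, 13693, 2794 and 5013 normalised reads without IWR-1 and 1472, 2408, 13189, 3148 and 5659.8 with it, in the same order of lines. Lines 2 and 4 were higher and lines 1, 8 and 11 lower without IWR-1. The log2 fold change was -0.03 ± 0.07 (SE; 95% interval -0.18 to 0.13; limma adjusted p = 0.963), which bounds a mean difference to between 0.88-fold and 1.09-fold.

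EFNB3 encodes ephrin-B3, known in the mouse as a barrier at the midline of the spinal cord. It was higher without IWR-1 in 5 of 5 lines, at 1705, 2344, 3491, 2332 and 3684 normalised reads, against 1633, 1883, 3181, 2103 and 3314 with IWR-1. The log2 fold change was small, 0.16 ± 0.06 (SE; 95% interval 0.03 to 0.29; limma adjusted p = 0.335), and line 2 had the largest ratio, 1.24. In all, 4 of the 8 members kept 1 direction across the 5 lines, compared with 11.1% of all tested bovine genes: EPHB1 and EPHB3 downward (4.92% of all) and EPHB6 and EFNB3 upward (6.2% of all). These 4 were also those with an unadjusted p under 0.05 in limma, against 10.1% of all tested genes.

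**Figure D2:**
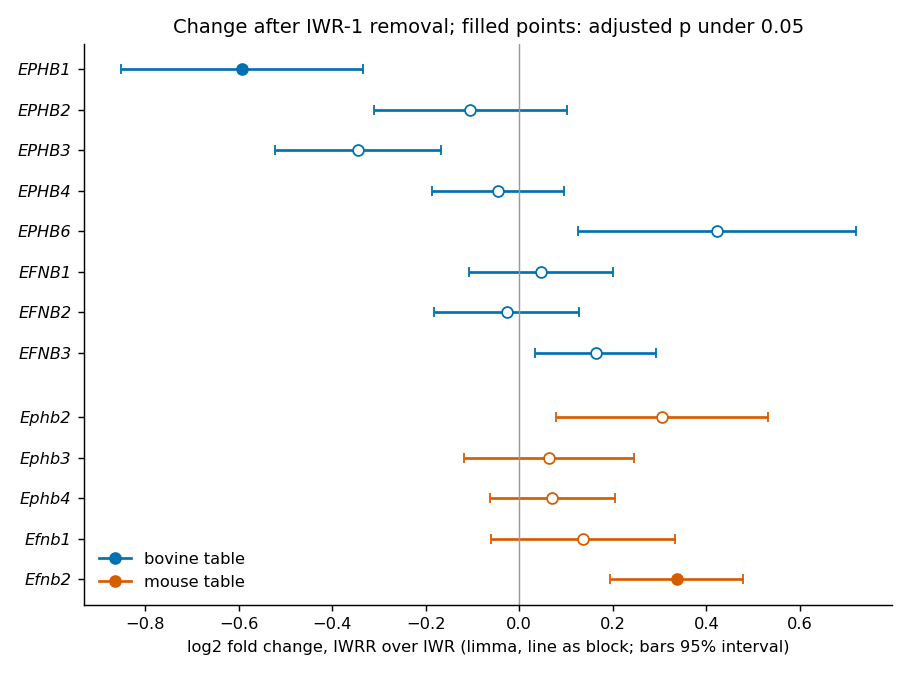
Log2 fold change of each tested member, medium without IWR-1 over medium with it, from limma with the line as a block (x axis), with 95% intervals. The filled points, EPHB1 in the bovine table at -0.59 and Efnb2 in the mouse table at 0.34, had an adjusted p under 0.05.

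The line accounted for more of the sum of squares than the medium did, but it also has more terms in the fit. Pooled over all tested bovine genes, the line took 85.9% and the medium 3.64%. In the bovine table the line accounted for 63.2% of the sum of squares of log2 values of EPHB6 and for 89.8% to 99.5% in the other 7 members, whereas the medium accounted for 27.6% in EPHB6 and at most 7.53% in the others. The limma F-test of the line terms called all 8 members, with adjusted p of 5.94e-08 (EFNB2) to 0.0199 (EPHB6), in a table where 66.5% of genes were called. This test sets the lines against the spread between wells of a line, and 6 of the 8 were called without line 1.

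Line 4 lay at an end of the range for 3 of the 5 receptors and 2 of the 3 ligands. Averaged over both media it was the lowest line for EPHB2, EPHB3 and EPHB4, at 0.58, 0.41 and 0.60 of the median of the other lines. It was the highest line for EFNB1 and EFNB2, at 3.68-fold and 4.80-fold of that median. These 5 genes lay outside the other lines in both media: 3 of the 8 members were lowest in line 4, against 18.4% of all tested genes, and 2 were highest, against 19.1%, the second share being near that of all genes. EPHB1 (1.09-fold), EPHB6 (1.27-fold) and EFNB3 (1.54-fold) of line 4 lay within the range of the others in at least 1 medium. The mouse share and the summed fibroblast and neural markers of line 4 were likewise the highest, and their part in this pattern was not tested.

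Among the remaining lines the genes ranked differently. EPHB1 was lowest in line 1, at a mean of 64.0 normalised reads over both media, against 374 to 595 in the other lines; neighbouring lines above it (2, 4, 8 and 11) overlapped between wells. EPHB2 ran 11, 2, 8, 1, 4 from highest to lowest, with no overlap between neighbours. EPHB3 ran 2, 1, 11, 8, 4, with overlap of 1 with 11 and of 11 with 8. EPHB4 ran 11, 2, 1, 8, 4, with overlap of 11 with 2 and of 1 with 8. All neighbours of EPHB6 overlapped.

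EFNB1 and EFNB2 shared an order, and EFNB3 differed from it in its top lines. The order of EFNB1 and EFNB2 was 4, 11, 8, 2, 1, over a 6.65-fold and a 9.40-fold range, with overlap only of 8 with 2 for EFNB2. EFNB3 ran 11, 4, 8, 2, 1 over a 2.10-fold range, with overlap of 11 with 4 and of 8 with 2. Line 1 was thus the lowest of the 5 for all 3 ligands.

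**Figure D3:**
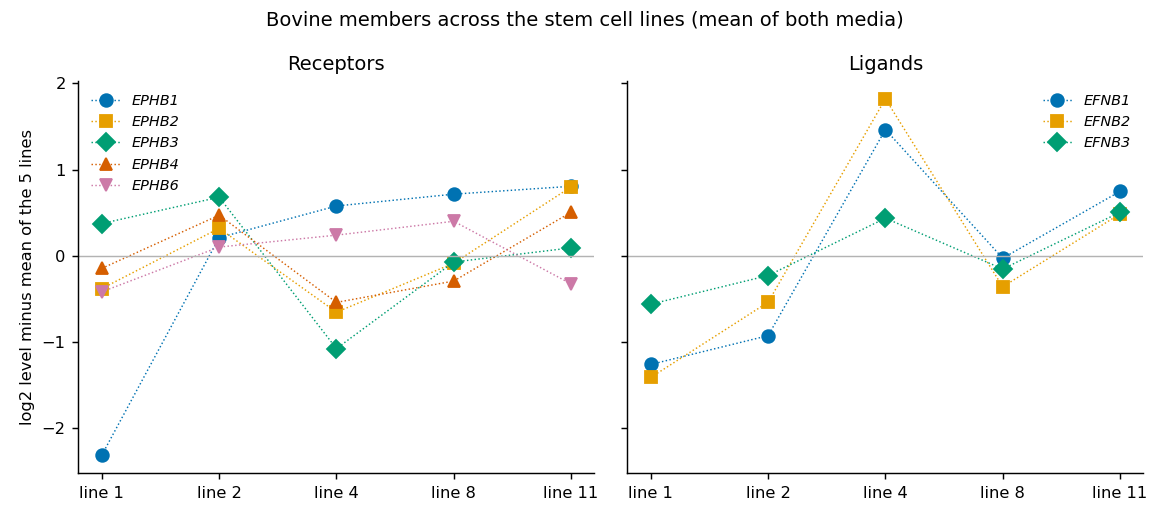
Level of each bovine member per line, as the mean log2 value of both media minus its mean over the 5 lines (y axis, log2 scale), with receptors on the left and ligands on the right; dotted lines only join the points of a gene. In line 4, EPHB2, EPHB3 and EPHB4 lie below 0 and all 3 ligands above it, and EPHB1 is far below 0 in line 1.

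The genes most like each member were ranked by Pearson correlation of log2 values over the 10 libraries, among 12438 bovine genes with a symbol and a mean of at least 100 normalised reads. These libraries hold only 5 lines, so the ranking mostly reflects the order of the lines and is given as a description. EFNB2 was most like MAML2 (r = 0.992), SUSD6 (0.992) and WWTR1 (0.992), and EFNB1 most like CFAP69 (0.988), EPOP (0.986) and GALNT16 (0.985). EPHB4 was nearest to JUP, which encodes plakoglobin (0.992), FIGNL2 (0.979) and GPR146 (0.976). For EPHB2 the nearest were EPB41L5 (0.986), PPM1A (0.982) and SEMA3E (0.977), and for EPHB3 they were THSD1 (0.980), NRBP1 (0.979) and PROX1 (0.975). EFNB3 was nearest to ARHGEF12 (0.985), IGFBP4 (0.983) and BAIAP2 (0.982). EPHB1 was nearest to IQCN (0.958), ASTE1 (0.953) and ATP2C1 (0.948). EPHB6 had the weakest neighbours, ABLIM3 (0.890), SLC23A2 (0.845) and ATP12A (0.840). Within the family, EFNB1 and EFNB2 reached 0.957 with each other, EFNB3 reached 0.916 with EFNB1, and EPHB2 and EPHB4 reached 0.908. The nearest member was at 0.716 for EPHB3 (EPHB4), 0.662 for EPHB1 (EFNB1) and 0.341 for EPHB6 (EPHB1).

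In the feeders the member called was a ligand, Efnb2, at 1.26-fold without IWR-1. The receptor Ephb2 had a log2 fold change of similar size (0.30, against 0.34 for Efnb2) and was not called. Of the 5 mouse members tested, 1 was called, against 4.19% of 15871 mouse genes in either direction, 2.14% upward and 2.05% downward. The 5 had a median log2 fold change of 0.14, against -0.00041 for all tested mouse genes. Ephb1 was below the filter, at 0 to 39 recovered reads in a library.

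Efnb2 stood at 1410.3, 2369, 2943, 1826 and 2123 normalised reads without IWR-1 in the wells of lines 1, 2, 4, 8 and 11, against 1285, 1746, 2230.3, 1466 and 1618 with IWR-1. It was the 1 tested member that kept its direction across the 5 pairs of wells, being higher without IWR-1 in each, while the groups overlapped; 15.7% of all tested mouse genes kept 1 direction and 7.83% were higher each time. The means were 2134 ± 576 without IWR-1 and 1669 ± 358 with it (SD, n = 5 each), with a log2 fold change of 0.34 ± 0.07 (SE; 95% interval 0.19 to 0.48; limma adjusted p = 0.0133). The ratio was smallest beside line 1, at 1.10, and largest beside line 2, at 1.36. The call was lost without line 4 (limma adjusted p = 0.0844) or line 11 (limma adjusted p = 0.0918). It was also lost without the line block (limma adjusted p = 1.00) and after adjustment for the mouse share (log2 fold change 0.28, limma adjusted p = 1.00). Without the block or with this adjustment 0 of all 15871 tested mouse genes were called, so these losses are not particular to Efnb2. The call held in the other 3 fits that left out a line and in edgeR and DESeq2 on the recovered reads.

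Feeder Ephb2 was higher without IWR-1 in 4 of 5 pairs and was not called. It stood at 470.1, 743, 769, 1152 and 987 normalised reads without IWR-1, against 401, 473, 521, 1239.9 and 869 with IWR-1, in the order of lines above. Beside line 8, where it was most abundant, it was lower without IWR-1. The log2 fold change was 0.30 ± 0.10 (SE; 95% interval 0.08 to 0.53; limma adjusted p = 0.145), and 0.41 without line 8, where it was called (adjusted p = 0.0261). Ephb2 and Efnb2 were the 2 of 5 tested members with an unadjusted p under 0.05, against 16.2% of all tested mouse genes.

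For the other 3 feeder members tested, the intervals included 0. Ephb3 was at 682 to 1232 normalised reads without IWR-1 and 778 to 1039.5 with it, with a log2 fold change of 0.06 ± 0.08 (SE; 95% interval -0.12 to 0.24; limma adjusted p = 0.801). Ephb4 was at 2358 to 2952 and 2074 to 3019 in the same media, with 0.07 ± 0.06 (95% interval -0.06 to 0.20; limma adjusted p = 0.661). Efnb1 was at 1069.8 to 1448 without IWR-1 and 1002 to 1391 with it, with 0.14 ± 0.09 (95% interval -0.06 to 0.33; limma adjusted p = 0.539), most of it from the well pair of line 11 (1445 without IWR-1 against 1002 with it). Without line 11 the log2 fold change of Efnb1 was 0.04. For all 3 the groups overlapped.

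Feeder Ephb1 is given as reads only. Without IWR-1 it had 9, 10, 39, 6 and 1 recovered reads beside lines 1, 2, 4, 8 and 11, against 3, 13, 14, 2 and 0 with IWR-1. The highest count was beside line 4, the wells with the most mouse reads. Counting error alone spans a ratio of 0.82 to 18.8 beside line 1, and beside line 4 it spans 1.47 to 5.54. No test was made at this depth.

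**Figure D4:**
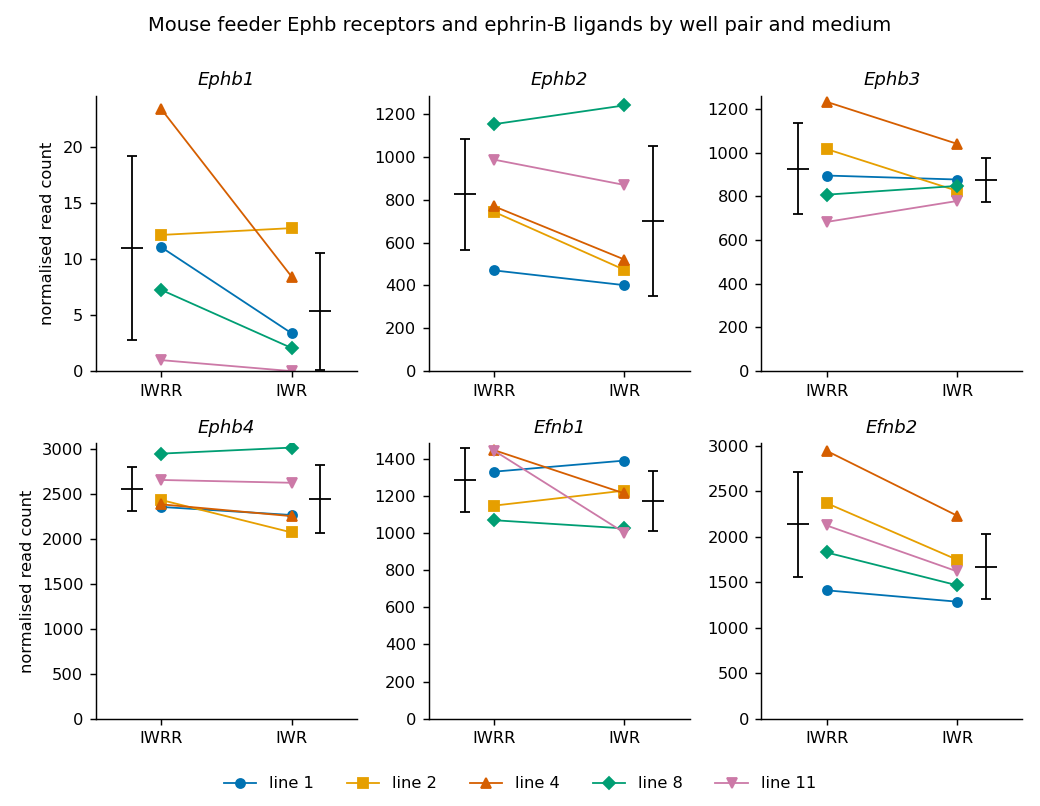
Normalised read counts (y axis, from 0) of the 6 mouse members in the feeders without IWR-1 (IWRR) and with it (IWR), coloured by the bovine line that shared the well, with black bars for the mean and SD of 5 wells. Efnb2 is higher without IWR-1 in all 5 pairs, and Ephb1 stays at or below 23.4.

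Feeder levels also varied with the line that shared the well. The F-test of the line terms called Ephb2 (limma adjusted p = 0.000193), Efnb2 (0.000254), Ephb4 (0.0220) and Ephb3 (0.0230) and not Efnb1 (0.216), in a table where 35.1% of genes were called. Efnb2 and Ephb3 were highest beside line 4 in both media, as were 6% of tested mouse genes, and 0 members were lowest there, against 7.62%. Ephb2 and Ephb4 were highest beside line 8, at means of 1196 and 2985 normalised reads over both media, against 436 to 928 and 2255 to 2643 beside the others.

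Line 2 often had the most positive response to IWR-1 removal in this gene family, a tally made after the values were seen. Its within-line change was the most positive of the 5 lines for 6 of the 8 bovine members, EPHB2 (0.35), EPHB3 (-0.02), EPHB4 (0.20), EPHB6 (0.77), EFNB2 (0.24) and EFNB3 (0.32), against 31.3% of all tested bovine genes. In the feeders of the same wells this held for 4 of 5 tested members, Ephb2 (0.65), Ephb3 (0.30), Ephb4 (0.23) and Efnb2 (0.44), against 29.9% of all tested mouse genes. Line 2 had the most negative change for 0 of the 8 bovine members, against 26.2% of tested genes, and for 1 of 5 feeder members, Efnb1 (-0.10), against 26.4%. The members of a well share its library, and no test was made.

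Whether a gene changed differently in stem cells and feeders was examined on the 5 pairs of orthologous genes measured in both tables. The within-line log2 change was lower in the stem cells than in the feeders of the same well in 5 of 5 lines for EPHB2, EPHB3, EPHB4 and EFNB2. No share over all orthologous genes can be set beside this, because the mouse IDs are not paired with names. Whether the pattern is particular to this family was therefore not tested. For EFNB2 the mean change was -0.03 in bovine cells and 0.34 in mouse cells, a difference of -0.36 ± 0.16 (SD, n = 5). For EPHB2 the values were -0.11 and 0.30, a difference of -0.41 ± 0.32, and for EPHB3 they were -0.34 and 0.06, a difference of -0.41 ± 0.28. EPHB4 differed by only -0.12 ± 0.07. The exact two-sided sign-flip test gave p = 0.0625 for each of these 4 genes, the smallest that 5 lines allow, and 0.0781 after Benjamini-Hochberg adjustment over the 5 pairs, so with 5 lines this test cannot pass 0.05 whatever the size of the difference, and the values are given as a description. EFNB1 was lower in 3 of 5 lines (difference -0.09 ± 0.28; exact p = 0.688). The tables were scaled separately, and each change is relative to its own table.

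**Figure D5:**
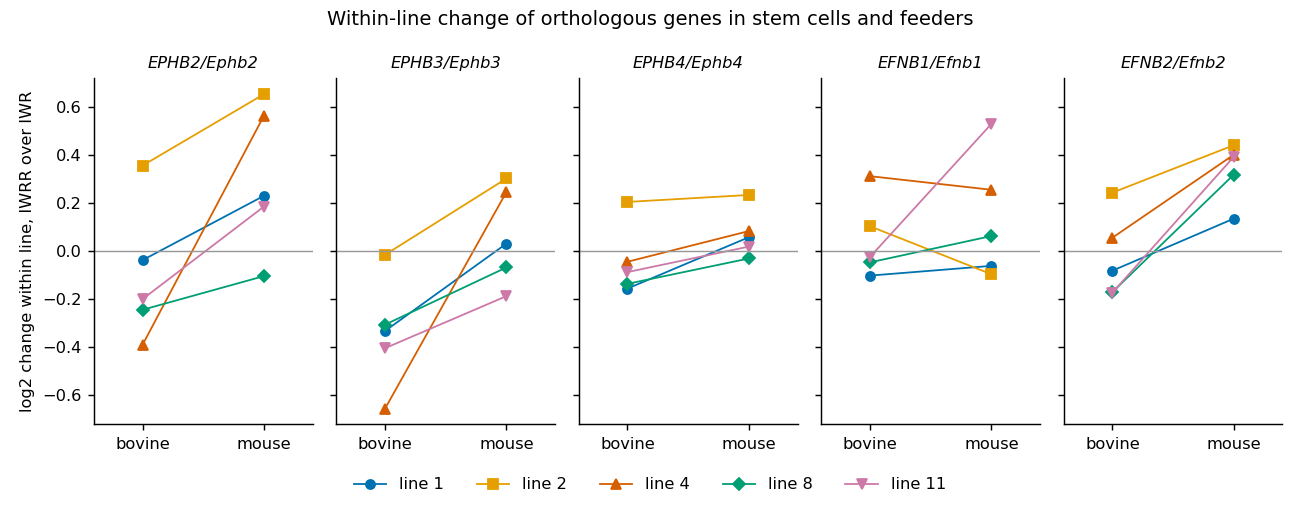
Within-line log2 change, without IWR-1 over with it (y axis), of 5 orthologous genes in bovine stem cells (left) and mouse feeders (right), with 1 coloured line per stem cell line. EPHB2, EPHB3, EPHB4 and EFNB2 slope upward toward the feeders in all 5 lines, with mean differences, bovine minus mouse, of -0.41, -0.41, -0.12 and -0.36.

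The other genes of the system were examined in the bovine table. The EPHA receptors and ephrin-A ligands, whose ligands are tethered by a lipid anchor, gave 14 tested genes, of which 0 rose and 0 fell in limma. At an unadjusted p under 0.05, 2 were higher and 0 lower, against 10.1% of all tested genes in either direction. Of the 14, edgeR called 0 upward and DESeq2 called 1, EPHA7. Of all 18506 tested genes DESeq2 called 358 upward. Their median log2 fold change was 0.07, with a range of -0.15 to 0.38, against -0.0046 for all tested genes. The smallest adjusted p was that of EPHA2, at 5606 ± 2174 normalised reads without IWR-1 and 4547 ± 1433 with it (SD, n = 5 each; log2 fold change 0.27 ± 0.07 SE; limma adjusted p = 0.174). EPHA7 had 0.35 ± 0.10 (limma adjusted p = 0.179; DESeq2 adjusted p = 0.0372) and -0.06 after adjustment for the mouse share. EPHA1 had 0.12 ± 0.07 (limma adjusted p = 0.636) and was higher without IWR-1 in 5 of 5 lines.

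Among 50 tested signalling partners 1 rose, 0 fell and 49 were not called, against 0.886% of all tested genes that rose, so that 1 gene is no result about the list. The median log2 fold change was 0.0046. At an unadjusted p under 0.05 the list held 1 gene higher and 1 lower, against 10.1% of all tested genes in either direction. LYN, a kinase of the SRC family, rose to 2729 ± 726 normalised reads without IWR-1, against 1819 ± 611 with it (SD, n = 5 each; log2 fold change 0.60 ± 0.09 SE; limma adjusted p = 0.0131). It was higher without IWR-1 in 5 of 5 lines, and its call was lost without line 1 (adjusted p = 0.0871). The exchange factor gene ARHGEF16 was at -0.21 ± 0.08 (limma adjusted p = 0.378) and LIMK1, a kinase of the cofilin pathway, at 0.11 ± 0.05 (limma adjusted p = 0.579).

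A list of 11 Wnt readout genes, chosen with earlier results of these data known, was read in the same fit. Of these 4 rose and 0 fell, against 0.886% of all tested genes that rose. Their median log2 fold change was 0.61, against -0.0046 for all tested genes. Among the listed genes AXIN2 rose by 0.74 ± 0.13 (limma adjusted p = 0.0258) and NKD1 by 1.39 ± 0.22 (limma adjusted p = 0.0207). Leaving out line 11 left 0 of the 11 called, and leaving out line 4 or line 8 left 2. Beside them the crypt receptors EPHB2 and EPHB3 were at -0.11 and -0.34, neither called. AXIN2 was highest in line 4, at 5945 normalised reads without IWR-1 and 3202 with it, and lay between 335 and 1091 without IWR-1 and between 228 and 461 with it elsewhere. EPHB2 and EPHB3 had their lowest levels in line 4, as did EPHB4, and 18.4% of all tested genes were lowest there in both media. Line 4 also had the highest mouse share and the highest summed fibroblast and neural markers. Whether these receptors follow the Wnt readout was not tested.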

How the data were processed

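Poly(A) RNA of 10 wells was sequenced. Per the labels, reads were mapped to ARS-UCD1.3 and to GRCm39. Tools named, without roles, per the submitters' processing notes were featureCounts 1.5.0-p3, StringTie 1.3.3b, HISAT2 2.0.5 and fastp. The authors deposited a normalised signal per gene and library, whose values were whole multiples of 1 step per library. In units of this step, 100% of positive values were whole reads (tolerance 0.01 reads); no label states the scaling. Another 2 mouse columns carry no label of these samples and were left out.

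Of 27590 bovine IDs, 24660 matched a RefSeq table of ARS-UCD2.0, which gave symbols only. Of 31349 mouse IDs 0 matched, and mouse members were found by their stated IDs. A gene was tested if 5 or more libraries reached a value of 10. limma 3.58.1 (R 4.3.3, intensity trend) was fitted to log2(value + 1), with medium and line as terms and Benjamini-Hochberg adjustment over all tested genes. Fold changes on this scale understate those of low genes. Line numbers pair the wells because both came from the same cell line; deviations from the group means correlated within lines at 0.617 to 0.883 (bovine) and 0.488 to 0.725 (mouse). The labels do not say whether the lines came from separate embryos. The limma p-values of the medium set the mean within-line change against how far that change varies from line to line. The fits were checked on simulated data. As alternatives, the recovered reads were tested with DESeq2 1.42.0 and edgeR 4.0.16, and limma was rerun with other pseudocounts, TMM scaling, no filter, no block, the mouse share as a covariate, and without each line. On the recovered reads, edgeR called 178 bovine genes higher and 12 lower, and 372 mouse genes higher and 355 lower. Counting intervals are exact binomial.

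Members and gene lists (Eph and ephrin genes, signalling partners, Wnt readout genes, cell type markers) were chosen with earlier results of these data known. All members are named; so are, from the lists of Eph and ephrin genes and of partners, up to 6 called genes and the 3 smallest adjusted p each, AXIN2 and NKD1, and the 3 likest genes per member. Among markers, 1 of 9 pluripotency, 0 of 12 fibroblast, 1 of 5 tested endothelium and 0 of 5 neural genes were called, each upward. Sequences of the members were not used here.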

Additional observations from a re-analysis of the deposited data

How the results depend on the processing

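Line as block, filter and test tool decided which members were called. Against 1 of 8 bovine members, 0 were called without the line block, without the filter and with the mouse share as a covariate, 2 by DESeq2, and 0 to 1 with a line left out. Against 1 of 5 mouse members, 0 were called without the block and with the covariate, and 0 to 2 with a line left out. Over all bovine genes, 176 were called, against 0 without the block, 53 without the filter, 420 by DESeq2, 0 with the covariate and 31 to 184 with a line left out (31 without line 11, 36 without line 1, 101 without line 4). Over all mouse genes, 665 were called, against 0 without the block, 329 without the filter, 0 with the covariate and 269 to 936 with a line left out (269 without line 11, 283 without line 4, 320 without line 1). Without the block, 105 bovine and 584 mouse genes had an unadjusted p under 0.05, and with the covariate 456 and 687. The cause of these shifts was not tested.

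Line differences were called in 44.2% of bovine and 13.2% of mouse genes without the filter, and in 23.1% (without line 11) to 40.4% of mouse genes with a line left out. They were called in 6 to 8 bovine and 3 to 4 mouse members with a line left out. Of the EPHA and ephrin-A genes DESeq2 called 1. Of the signalling partners 0 rose without the block and with the covariate, and 0 to 1 with a line left out. Of the Wnt readout genes 0 rose without the block, without the filter and with the covariate, 7 rose by DESeq2, and 0 to 3 with a line left out.

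The sign of the log2 fold change turned with the mouse share as a covariate for EFNB2 (0.0737), feeder Efnb1 (-0.0481) and EPHA7 (-0.0649). With a line left out it ran from -0.0194 (without line 4) to 0.0842 for EFNB1, and for EFNB2 from -0.0941 to 0.0101, above 0 without line 8 (0.0094) and without line 11. The species difference of EFNB1 ran from -0.162 to 0.0266, above 0 without line 11. Members kept their sign in the alternatives not named here. TMM scaling and pseudocounts of 0.5 and 5 changed no call of a member. Depth limits feeder Ephb1, EPHB1 of line 1 and EPHB6.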
